A study of Saccharomyces cerevisiae with 35 samples.

Results

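The comparison removes a single copy of *DIG1* from a *Saccharomyces cerevisiae* strain with an extra chromosome XVI. The 8 libraries compared, of 35 in the series, were chosen by strain: 4 came from a disome of chromosome XVI in which 1 of the 2 *DIG1* copies is deleted (the hemizygous strain, *DIG1/dig1*Δ), and 4 from the full chromosome XVI disome. Both strains descend from F45, a haploid *MAT*a strain with the mating type switching gene *HO* deleted, *SPS2* tagged with EGFP, and an unmapped serine auxotrophy. In the hemizygous strain the second *DIG1* copy is replaced by a *kanMX4* cassette, and the *DIG1* on the other chromosome XVI is intact. Euploid F45 is given beside them as a reference level, and the only other strains used are F45 with a *DIG1* overexpression plasmid and F45 with an empty plasmid, with 4 libraries each. RNA was taken from whole colonies after 4 d of growth on rich glucose plates, several colonies were pooled for each library, and all of these libraries belonged to the first sequencing batch. By the study's description, F45 colonies are fluffy, colonies of the full disome are smooth, and those of the hemizygous strain are fluffy at the perimeter and smooth in the center. RNA from such colonies mixes cells in different positions and states, so fewer cells of a kind and less RNA per cell cannot be told apart.

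Dig1 is a nuclear inhibitor of Ste12, the transcription factor at the end of the mating pheromone and filamentous growth MAP kinase pathways. In mating, Ste12 acts with Dig1 and a related inhibitor, Dig2. On filamentation genes it acts with the transcription factor Tec1, in complexes that hold Dig1, and phosphorylation by the kinases Fus3 and Kss1 relieves the inhibition. Targets of the Ste12 and Tec1 pair include *FLO11*, the cell surface flocculin that yeast needs for fluffy colonies, for adhesion to agar, and for pseudohyphal growth.

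Total counts ranged from 6503076 to 14050660 in the hemizygous libraries and from 8029723 to 23575279 in the full disome, and nuclear ORFs held 98.9 to 99.0% of them. Levels below are normalized CPM, counts scaled to library size, relative to the ORFs of chromosomes I to XIV, listed for libraries 1 to 4 of a strain in the order of the run numbers that the deposited columns carry. Log2 fold changes are hemizygous minus full disome, given with the SE of the fit, and a gene is said to rise or fall where its adjusted p is under 0.01. Spearman correlations across ORFs were 0.992 to 0.997 among hemizygous libraries, 0.993 to 0.998 among disome libraries, and 0.980 to 0.992 between the strains. The deleted gene *HO* had 1 count in all over each set of 4 libraries. Of 6 genes that mark *MAT*a cells, 0 differed between the strains in edgeR's quasi-likelihood test (1 had an unadjusted p under 0.05, and DESeq2 called 0), with a summed level of 269.7 to 318.7 CPM in the hemizygous libraries and 247.0 to 311.0 CPM in the disome libraries, and none stood at 0. Disome library 3 stood apart from the other 3 in *FLO11*, and disome library 2 in its balance of short and long genes, and values without them are given where they matter.

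Across 5923 tested ORFs, 25.5% passed the threshold, 12% higher and 13.5% lower in the hemizygous strain, and in 35% the libraries of the strains did not overlap. The median log2 fold change of all tested ORFs was −0.002. Counts in the gene lists below are to be read against these shares. Of the ORFs past the threshold, 64 were over 1.5-fold higher and 83 over 1.5-fold lower. Over 2-fold these numbers were 6 and 13. The mean absolute log2 fold change of all tested ORFs was 0.21. The p-values measure the spread between libraries.

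*DIG1* (chrXVI:462481-463839, minus strand), the gene whose copy number differs, fell. It was at 54.7, 58.1, 65.3 and 62.7 CPM in the hemizygous libraries and at 143, 125, 149 and 129.6 CPM in the full disome. The groups were far apart, and the hemizygous values overlapped the lower end of euploid F45, which has 1 copy and held 66.6, 71.5, 63.5 and 72.02 CPM. The log2 fold change was −1.18 ± 0.06 (adjusted p = 4.79e-13), with a 95% interval of −1.32 to −1.05, or a level 2.27-fold lower (interval 2.08 to 2.49). A log2 fold change of −1, the ratio of the copy numbers, lies outside that interval. An exact permutation test on the CPM gave p = 0.0286, two-sided, the smallest value that 4 against 4 libraries can give. The gene's partners did not pass the threshold: *DIG2* had a log2 fold change of 0.14 ± 0.09 (adjusted p = 0.279), and *STE12* 0.07 ± 0.09 (adjusted p = 0.624).

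The rest of chromosome XVI kept its dosage. Levels relative to F45 were taken over its ORFs with a mean of at least 10 CPM in the 8 libraries and in F45. Their median was 1.97-fold that of F45 in the hemizygous strain and 1.96-fold in the full disome. Over all tested ORFs of the chromosome, the median log2 fold change between the strains was 0.016. Medians of single chromosomes lay between −0.071 for chromosome III and 0.032 for chromosome IV. Among the 4 ORFs on each side of *DIG1*, 2 of 8 passed the threshold, both upward. *ARL3*, a small GTPase of the Golgi near *DIG1*, was at 95.7, 81.7, 91.6 and 87.3 CPM in the hemizygous libraries and 67.4, 76.1, 63.1 and 58.2 CPM in the full disome, a log2 fold change of 0.42 ± 0.09 (adjusted p = 9.36e-04). No libraries overlapped, and both strains stood well above the 20.6 to 27.5 CPM of F45. *ELC1*, the yeast elongin C, had a log2 fold change of 0.42 ± 0.08 (adjusted p = 1.05e-04), and with each library's trend over gene length removed it was 0.20 (adjusted p = 0.0206), past the threshold no longer. Under that same adjustment *SGF11*, a subunit of the SAGA complex that is 300 bases long, went from −0.02 to −0.24 (adjusted p = 0.00125). *KTR6*, *OAZ1*, *MNN9*, *CAM1* and *VPS16* had log2 fold changes between 0.03 and 0.18 and did not pass.

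**Figure D1:**
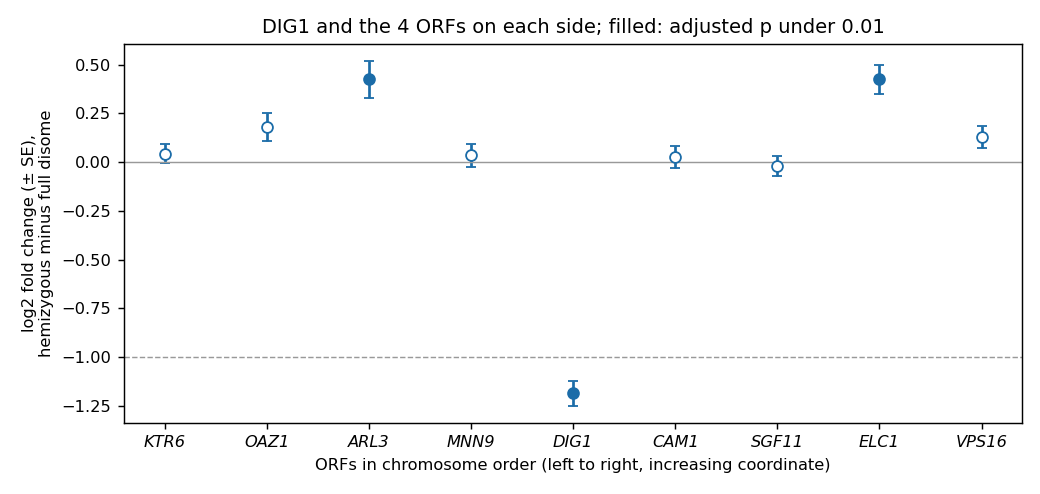
Log2 fold change (hemizygous minus full disome, fitted value with SE) of *DIG1* and the 4 ORFs on each side, in chromosome order. The dashed line marks a log2 fold change of −1. *DIG1* lies below it at −1.18, and the 8 neighbours lie between −0.02 and 0.42.

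Sequence upstream of *FLO11*, *NFG1* and *TEC1* is shown first, since the values below are grouped by the factors known to act there. The stretches are from the S288c reference (R64, RefSeq), not from F45, are written 5′ to 3′ on the coding strand, and were searched on both strands for TGAAAC, the core of the Ste12 pheromone response element, and for CATTCC and CATTCT, bound by Tec1. Matches are in capitals, and a match on the opposite strand reads GTTTCA for Ste12 and either GGAATG or, more often here, AGAATG for Tec1. A distal window of *FLO11* (chrIX:395245-395345, minus strand) holds 2 Ste12 matches, at 1662 and 1585 bases before the start codon, and a proximal one (chrIX:394545-394695, minus strand) holds 3 Tec1 matches, at 1009, 885 and 878 bases. *FLO11* also has Tec1 matches nearer the start codon, at 705, 629 and 285 bases, and others elsewhere upstream, outside both windows. The windows of *NFG1* (chrXII:230611-230731, minus strand) and *TEC1* (chrII:408654-408789, plus strand) hold 4 matches each.
FLO11 distal: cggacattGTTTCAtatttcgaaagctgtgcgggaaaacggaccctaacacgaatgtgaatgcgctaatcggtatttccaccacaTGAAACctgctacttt
FLO11 proximal: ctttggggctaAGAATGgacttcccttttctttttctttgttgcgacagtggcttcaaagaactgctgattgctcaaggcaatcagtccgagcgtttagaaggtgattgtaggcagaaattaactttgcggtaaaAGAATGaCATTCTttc
NFG1: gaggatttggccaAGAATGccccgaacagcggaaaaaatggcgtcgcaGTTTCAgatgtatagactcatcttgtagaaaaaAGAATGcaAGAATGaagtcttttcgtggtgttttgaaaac
TEC1: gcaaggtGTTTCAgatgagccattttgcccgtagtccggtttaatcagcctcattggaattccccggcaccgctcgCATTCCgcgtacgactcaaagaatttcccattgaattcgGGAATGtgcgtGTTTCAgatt
Within 800 bases of the start codon, 45.8% of 6556 nuclear ORFs have a TGAAAC match and 59.5% have a CATTCC or CATTCT match. Of the 23 tested Ste12 and Tec1 targets listed below, 15 and 22 do. Of the 8 targets that passed the threshold, 4 (50%) and 8 do, and *FLO11* has no TGAAAC match within that distance. A match describes the letters of the reference only.

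*FLO11* (chrIX:389572-393675, minus strand) rose most of all genes named here. The hemizygous libraries held 1908, 2221, 2724 and 3244 CPM and the disome libraries 236, 178, 541 and 177 CPM. The lowest hemizygous library was above the highest disome library, library 3, and every library of both strains was far below F45, which held 15546 to 17223 CPM. Its log2 fold change was 3.15 ± 0.24 (adjusted p = 2.99e-10). It stayed between 2.98 and 3.68 with any 1 library left out, and the largest value came without disome library 3.

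Upstream of *FLO11*, a pair of long noncoding RNAs is transcribed across the promoter. In laboratory strains *ICR1*, on the strand of *FLO11*, is known to accompany the silenced state of the gene, and *PWR1*, on the opposite strand, the active state. *PWR1* (chrIX:395999-396939, plus strand) held 2.70, 2.86, 2.36 and 3.38 CPM in the hemizygous libraries and 0.648, 0.289, 0.464 and 0.299 CPM in the disome libraries. It rose by 2.63 ± 0.28 on the log2 scale (adjusted p = 1.36e-07) without overlap, from 22 counts in all 4 disome libraries to 93 in the hemizygous ones, and F45 held 18.9 to 24.5 CPM. *ICR1* (chrIX:393884-397082, minus strand) held 15.8, 17.2, 15.9 and 15.8 CPM against 20.1, 18.95, 20.97 and 16.3 CPM. Its hemizygous libraries tended low and the groups overlapped, with a log2 fold change of −0.26 ± 0.10 (adjusted p = 0.0501).

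*NFG1*, a negative regulator of the filamentous growth pathway, rose next. Its levels were 24.6, 20.8, 32.5 and 36.1 CPM in the hemizygous libraries and 5.19, 4.27, 11.5 and 2.99 CPM in the disome, where the library 3 again was highest. The groups did not overlap, and F45 held 154 to 203 CPM. The log2 fold change was 2.07 ± 0.22 (adjusted p = 1.26e-07), and 2.72 without disome library 3. On the same chromosome *AFB1*, which encodes a secreted barrier for **a**-factor pheromone and lies near *NFG1*, had a log2 fold change of 0.86 ± 0.13 (adjusted p = 1.74e-05).

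**Figure D2:**
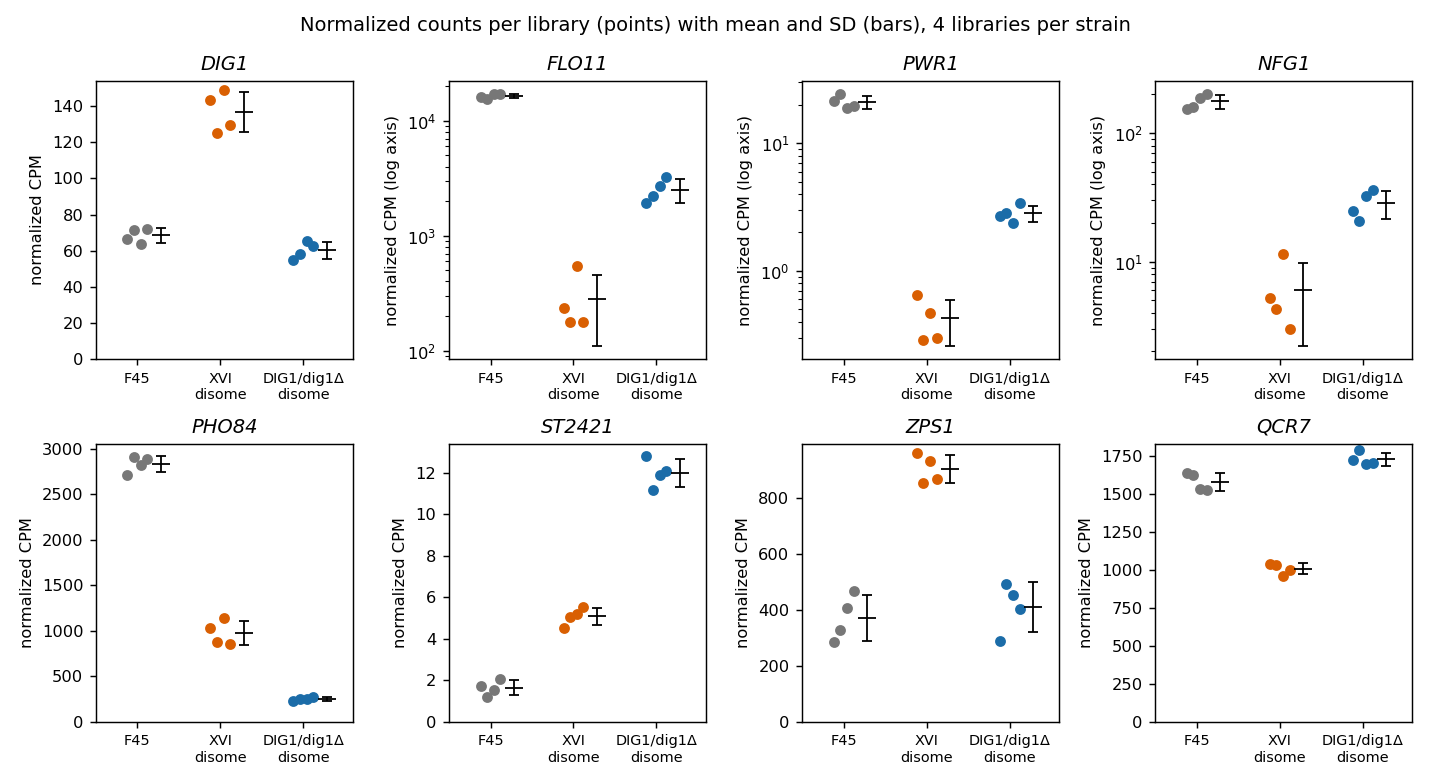
Normalized CPM of 8 genes in each library of F45, the full chromosome XVI disome and the *DIG1/dig1*Δ disome (points), with the mean and SD of 4 libraries (bars). *FLO11*, *PWR1* and *NFG1* are on log axes. The hemizygous libraries lie apart from the disome libraries in all 8 panels. In *FLO11*, *PWR1* and *NFG1* they lie between the disome and F45, and in *PHO84* they lie further from F45 than the disome does.

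Other targets of Ste12 and Tec1 moved less. Of 23 tested members of the list, 7 rose and 1 fell, with a median log2 fold change of 0.24. *TEC1* itself was at 31.7, 36.9, 39.96 and 39.8 CPM in the hemizygous libraries and 28.4, 22.4, 30.8 and 24.3 CPM in the disome, a log2 fold change of 0.47 ± 0.10 (adjusted p = 6.23e-04). These groups did not overlap, although the lowest hemizygous and the highest disome library were close, and F45 was at 50.2 to 59.3 CPM. *DDR48*, a stress protein also induced in filamentous growth, held 20.1, 21.2, 21.8 and 25.6 CPM against 12.6, 12.3, 11.9 and 12.1 CPM, and its log2 fold change was 0.85 ± 0.09 (adjusted p = 1.07e-07). All 4 hemizygous libraries were well above the disome libraries, which differed little among themselves. The dubious ORF *YMR173W-A* overlaps *DDR48* on the same chromosome and had a log2 fold change of 1.19 ± 0.19 (adjusted p = 3.35e-05). *BUD8*, which marks the distal pole of the cell for budding, had a log2 fold change of 0.43 ± 0.07 (adjusted p = 3.15e-05). *KSS1*, the MAP kinase of filamentous growth, had 0.35 ± 0.08 (adjusted p = 0.00120).

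*MSB2*, the signaling mucin at the head of the pathway, was at the lower end of these changes, with 304, 345, 372 and 417 CPM in the hemizygous libraries and 289, 233, 307 and 285 CPM in the disome. The groups overlapped slightly, and the log2 fold change was 0.37 ± 0.10 (adjusted p = 0.00561). It lost significance without hemizygous library 3 or 4, or disome library 2 or 4, with an adjusted p of up to 0.0328. The member that fell, *HMS2*, a regulator that promotes pseudohyphal growth when overexpressed, had −0.57 ± 0.14 (adjusted p = 0.00247), and without hemizygous library 2 its adjusted p was 0.0123. *SFG1*, a putative transcription factor of superficial pseudohyphal growth that is outside the list, was chosen after its values were seen. It was at 117, 114, 116 and 133 CPM against 73.1, 73.9, 76.5 and 73.3 CPM, a log2 fold change of 0.69 ± 0.10 (adjusted p = 7.23e-06), and the groups did not overlap.

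Among 18 tested components of the filamentation MAP kinase pathway, 5 rose and 2 fell, *DIG1* included, with a median log2 fold change of 0.04. Those that rose were *TEC1*, *MSB2*, *KSS1* and the kinases *STE7* and *STE11* that act before Kss1, and besides *DIG1* the kinase gene *STE20* fell. Of 25 tested regulators of *FLO11*, 1 rose (*TEC1*) and 1 fell. The latter was *TUP1*, the general corepressor, at 129, 135, 142 and 153 CPM in the hemizygous libraries and 208, 158, 211 and 201 CPM in the disome, a log2 fold change of −0.48 ± 0.09 (adjusted p = 1.44e-04). Its groups did not overlap, with disome library 2 nearest to the hemizygous ones. In the protein kinase A pathway, which acts on *FLO11* by another route, 1 of 17 rose and 1 fell.

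Genes of the mating response were split. Of 32 tested, 6 rose and 3 fell, and their median log2 fold change was 0.05. *PRM5*, a pheromone regulated membrane protein, was at 26.3, 39.8, 39.03 and 35.2 CPM against 21.6, 20.3, 23.6 and 15.4 CPM. The groups did not overlap, hemizygous library 1 being the lowest of its group, and the log2 fold change was 0.76 ± 0.14 (adjusted p = 1.07e-04). *PRM3*, needed for nuclear fusion after mating, had 0.55 ± 0.10 (adjusted p = 1.30e-04). *FIG2*, a mating adhesin, fell by 0.50 ± 0.12 on the log2 scale (adjusted p = 0.00151), and its adjusted p was 0.0120 without hemizygous library 1. *AGA1*, the anchor of **a**-agglutinin, was at 17.3, 20.03, 20.1 and 23.997 CPM against 37.05, 21.8, 34.4 and 29.3 CPM. The groups overlapped through disome library 2, the log2 fold change was −0.61 ± 0.17 (adjusted p = 0.00694), and the call was lost in 6 of the 8 fits that left out a library. It held only without disome library 2 or hemizygous library 4, the adjusted p otherwise reaching up to 0.0344. *FAR1*, the cyclin dependent kinase inhibitor of the pheromone arrest, had −0.65 ± 0.20 (adjusted p = 0.0157) and did not pass in the quasi-likelihood test. Its adjusted p was 0.00468 in a likelihood ratio test, 0.00574 with DESeq2, and 0.00766 in a fit to F45 and the chromosome XVI disomes only. The genes expressed only in *MAT*a cells, which Ste12 also drives, gave 0 of 7 past the threshold in edgeR's quasi-likelihood test, 1 at an unadjusted p under 0.05, and 0 in DESeq2.

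Of 7 tested cell surface adhesins, 1 rose (*FLO11*) and 2 fell (*AGA1* and *FIG2*). The flocculins *FLO1*, *FLO5*, *FLO9* and *FLO10*, which share sequence with each other, did not pass the threshold. In the quasi-likelihood test 6 of the 7 adhesins had an unadjusted p under 0.05, and the median log2 fold change of the 7 was −0.31.

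Many phosphate starvation genes fell. They are activated by the transcription factor Pho4, which binds CACGTG when phosphate is low. Of 19 tested genes that Pho4 is known to drive, 0 rose and 11 fell, with a median log2 fold change of −0.29. A CACGTG lies within 800 bases of the start codon in 17 of the 19 and in all 11 that fell, against 8.82% of nuclear ORFs, and CACGTT, a weaker site, in 13 of 19 against 23.8%. Stretches more than 150 bases before the start codon with matches close together are shown for *PHO84*, which fell most, (chrXIII:26050-26245, minus strand, overlapping the dubious ORF *YML122C*) and for *VTC3* (chrXVI:517283-517373, minus strand). Capitals mark CACGTG, and also the weaker site where it reads AACGTG from the opposite strand.
PHO84: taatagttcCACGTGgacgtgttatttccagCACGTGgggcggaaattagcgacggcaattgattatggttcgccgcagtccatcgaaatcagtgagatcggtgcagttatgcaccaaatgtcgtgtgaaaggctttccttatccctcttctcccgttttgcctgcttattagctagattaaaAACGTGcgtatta
VTC3: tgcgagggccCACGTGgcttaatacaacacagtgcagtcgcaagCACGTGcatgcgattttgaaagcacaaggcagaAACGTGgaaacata

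*PHO84* (chrXIII:24037-25800, minus strand), the high affinity phosphate transporter, held 224.9, 246, 251 and 276 CPM in the hemizygous libraries and 1034, 878, 1134 and 856 CPM in the disome. The groups were far apart, and F45 was higher than both at 2713 to 2904 CPM. Its log2 fold change was −1.97 ± 0.15 (adjusted p = 2.99e-10). The order of the strains thus differed from that of *FLO11*: the hemizygous strain was further from F45 than the full disome was.

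The same order held for the transporters and phosphatase that follow. *GIT1*, which takes up glycerophosphoinositol, was at 9.78, 11.2, 10.03 and 10.5 CPM against 25.1, 25.9, 28.5 and 23.3 CPM, and at 159.7 to 176 CPM in F45. *PHO5*, the secreted acid phosphatase, was at 37.1, 36.9, 39.9 and 49.8 CPM against 85.5, 52.6, 81.96 and 71.5 CPM, and at 873 to 943 CPM in F45. In both the hemizygous libraries were lowest without overlap, with log2 fold changes of −1.33 ± 0.17 (adjusted p = 1.60e-06) and −0.84 ± 0.12 (adjusted p = 4.75e-06). *PHO89*, a sodium phosphate cotransporter, had −1.18 ± 0.23 (adjusted p = 2.83e-04), and *SPL2*, a small inhibitor of low affinity phosphate transport, −1.03 ± 0.18 (adjusted p = 6.93e-05).

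The 4 subunits of the vacuolar complex that makes polyphosphate all fell. *VTC4*, the polymerase, was at 146, 136, 142 and 139 CPM in the hemizygous libraries and 228, 233, 242 and 242 CPM in the disome, with little spread in either, and at 351 to 366 CPM in F45. Its log2 fold change was −0.75 ± 0.05 (adjusted p = 3.71e-11), and those of *VTC1*, *VTC3* and *VTC2* were −0.58 ± 0.07, −0.56 ± 0.06 and −0.29 ± 0.06. Of 14 further phosphate transporters and regulators, 0 rose and 6 fell. The low affinity transporters *PHO90* and *PHO87* had log2 fold changes of −0.54 ± 0.09 (adjusted p = 3.34e-05) and −0.35 ± 0.05 (adjusted p = 8.70e-06), the vacuolar exporter *PHO91* −0.51 ± 0.09 (adjusted p = 6.52e-05), and the kinase inhibitor *PHO81* −0.35 ± 0.06 (adjusted p = 1.74e-04). *PHO4* itself did not pass, with −0.23 ± 0.10 (adjusted p = 0.101).

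Transcripts on the strand opposite to *PHO84*, across the gene and beside it, rose as it fell. The noncoding transcript ST2421 (chrXIII:23944-26104, plus strand) spans the whole gene, and counting was by strand. It held 12.8, 11.2, 11.9 and 12.1 CPM in the hemizygous libraries and 4.54, 5.06, 5.20 and 5.52 CPM in the disome, and F45 held 1.21 to 2.07 CPM. Without overlap, the order of the strains was the reverse of that of *PHO84*, and the log2 fold change was 1.24 ± 0.14 (adjusted p = 3.30e-07). Beside it, MUT1143.1 (chrXIII:23585-23825, plus strand) had 2.54 ± 0.30 (adjusted p = 6.10e-07), from 20 counts in all disome libraries to 79. F45 was highest of these strains in MUT1143.1, at 5.88 to 7.02 CPM. MUT1143.1 does not overlap *PHO84*. Its mean was 9.38 CPM with the empty plasmid and 0.146 CPM with the *DIG1* plasmid, where *PHO84* had a log2 fold change of 0.12. Upstream, 13F-14 (chrXIII:25828-26686, plus strand) had 0.82 ± 0.21 (adjusted p = 0.00367), a call lost without hemizygous library 3 or disome library 1 or 4 (adjusted p up to 0.0292) and without an adjusted p in DESeq2, and *YML122C*, on the strand of *PHO84*, had −1.52 ± 0.31 (adjusted p = 4.73e-04).

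Many zinc responsive genes fell as well. Zap1 activates them when zinc is low. Of 22 tested targets and zinc transporters, 0 rose and 12 fell, with a median log2 fold change of −0.31. The palindrome known as the zinc response element of Zap1, searched with its middle base free, lies within 800 bases of the start codon in 13 nuclear ORFs (0.198%), 3 of them in the list, *ZRT1*, *MCD4* and *ZRG17*. Of the 12 listed genes that fell, 2 have such a match. *ZPS1*, *YOR387C*, *VEL1*, *ADH4*, *IZH2* and *ZRC1*, which fell, have none. The stretch of *ZRT1* that holds its match, in capitals, is shown (chrVII:20753-20803, plus strand).
ZRT1: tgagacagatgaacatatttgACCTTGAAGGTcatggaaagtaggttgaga

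*ZRT1*, the high affinity zinc transporter, held 324, 519, 491 and 416 CPM in the hemizygous libraries and 991, 786, 864 and 844 CPM in the disome, a log2 fold change of −0.99 ± 0.17 (adjusted p = 5.70e-05). Hemizygous library 1 was lowest and no libraries overlapped, and F45 held 694 to 906 CPM, overlapping the disome and above the hemizygous strain. *ZPS1*, a cell surface protein induced by low zinc, held 288.4, 491, 454 and 403 CPM against 958, 851, 929 and 868 CPM, and its F45 libraries, at 283 to 465 CPM, overlapped the hemizygous ones. Its hemizygous library 1 was again lowest. *YOR387C* and its paralog *VEL1* are close in sequence, and reads could be shared between them. *YOR387C* held 40.4, 78.02, 57.7 and 46.04 CPM against 128, 159.6, 119 and 143 CPM, and F45 was lower than both at 8.85 to 29.7 CPM. The hemizygous libraries thus lay between the disome and F45 in *YOR387C*, and below both in *ZRT1*.

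Log2 fold changes were −1.30 ± 0.23 (adjusted p = 9.27e-05) for *YOR387C*, −1.23 ± 0.26 (adjusted p = 5.83e-04) for *VEL1* and −1.14 ± 0.22 (adjusted p = 2.52e-04) for *ZPS1*. *ADH4*, an alcohol dehydrogenase induced by low zinc, had −0.88 ± 0.19 (adjusted p = 9.66e-04), *IZH2*, a membrane protein of zinc homeostasis, −0.66 ± 0.07 (adjusted p = 2.27e-07), and *ZRC1*, the vacuolar zinc transporter, −0.36 ± 0.06 (adjusted p = 1.94e-05). *ZAP1* itself had −0.25 ± 0.13 (adjusted p = 0.155) and did not pass.

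Some anaerobic cell wall mannoproteins fell. Of 19 tested *DAN*, *TIR* and *PAU* genes, 0 rose and 6 fell, and their median log2 fold change was −0.06. These genes are near copies of each other in part, and the authors did not filter reads on mapping quality. *DAN1* held 23.4, 19.5, 32.3 and 32.4 CPM in the hemizygous libraries and 45.9, 58.5, 60.7 and 85.8 CPM in the disome, a log2 fold change of −1.20 ± 0.25 (adjusted p = 6.07e-04). The groups did not overlap, and F45, at 20.6 to 35.5 CPM, overlapped the hemizygous strain. *DAN4* had −1.16 ± 0.18 (adjusted p = 1.55e-05) and *TIR1* −0.75 ± 0.13 (adjusted p = 5.63e-05). *TIR1* was at 538 to 703 CPM in the hemizygous strain, 960.1 to 1205 CPM in the disome and 504 to 629 CPM in F45.

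Many genes of hypoxia and sterol metabolism fell. Of 27 tested, 2 rose and 14 fell, with a median log2 fold change of −0.30. *ARE1*, which esterifies sterols, held 58.2, 61.5, 60.6 and 52.4 CPM against 107, 110.0, 116 and 122 CPM and had −0.96 ± 0.09 (adjusted p = 2.35e-08). The hemizygous libraries lay at the level of F45, 48.6 to 68.7 CPM, and all disome libraries were above it. *ANB1*, the hypoxic form of translation factor eIF5A, had −0.92 ± 0.13 (adjusted p = 4.91e-06), and *HEM13*, an oxygen regulated enzyme of heme synthesis, −0.75 ± 0.09 (adjusted p = 1.41e-06). Among regulators of these genes, *HAP1*, the heme activator, had −0.54 ± 0.08 (adjusted p = 1.80e-05), and *UPC2*, the sterol regulator, −0.43 ± 0.09 (adjusted p = 0.00103), while *ROX1*, the repressor of hypoxic genes, had −0.14 ± 0.24 (adjusted p = 0.710) and did not pass. *ERG11*, lanosterol demethylase, had −0.41 ± 0.09 (adjusted p = 6.04e-04). The pair that rose was *CYC7*, with 0.66 ± 0.13 (adjusted p = 2.37e-04), and *COX5B*, with 0.45 ± 0.10 (adjusted p = 0.00118), the hypoxic isoforms of cytochrome *c* and of a cytochrome oxidase subunit.

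Cell wall proteins fell more often than they rose. Of 33 tested, 2 rose and 13 fell, with a median log2 fold change of −0.31, and the list shares *TIR1* with the genes above. *PRY3*, a wall protein of the CAP superfamily that binds sterols, held 78.9, 87.9, 86.7 and 93.9 CPM in the hemizygous libraries and 165.3, 181, 203 and 213 CPM in the disome, a log2 fold change of −1.13 ± 0.09 (adjusted p = 1.45e-09). Without overlap, the hemizygous libraries lay between the disome and F45, at 30.6 to 34.2 CPM. The similar genes *HPF1* and *CSS1*, whose reads could be shared, had −0.96 ± 0.15 (adjusted p = 1.61e-05) and −0.91 ± 0.18 (adjusted p = 2.64e-04). *PIR1* and *HSP150*, which are linked directly to wall glucan, had −0.55 ± 0.13 (adjusted p = 0.00131) and −0.56 ± 0.08 (adjusted p = 8.33e-06). *CWP2*, an abundant mannoprotein, rose by 0.49 ± 0.08 on the log2 scale (adjusted p = 1.91e-05).

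Of 34 wall synthesis and integrity genes, 1 rose and 6 fell. *FKS1*, the catalytic subunit of glucan synthase and a long gene, had −0.39 ± 0.09 (adjusted p = 8.32e-04), and −0.25 (adjusted p = 0.0106) with the length trend removed. Of 15 genes of daughter cell separation, 1 rose and 7 fell. *DSE4*, a glucanase that frees the daughter cell, held 46.4, 51.4, 56.3 and 53.1 CPM against 71.2, 86.9, 98.3 and 109 CPM, a log2 fold change of −0.81 ± 0.11 (adjusted p = 4.56e-06). All disome libraries were above the hemizygous ones, and F45 was lower at 19.3 to 22.7 CPM. *EGT2*, *SCW11* and the chitinase *CTS1* had −0.58 ± 0.09 (adjusted p = 2.08e-05), −0.46 ± 0.10 (adjusted p = 0.00121) and −0.33 ± 0.07 (adjusted p = 3.50e-04).

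Many glycolytic enzymes fell. Of 27 tested genes of glycolysis and fermentation, 0 rose and 15 fell, with a median log2 fold change of −0.36. *ENO2*, an enolase, held 5452, 5132, 5304 and 4881 CPM in the hemizygous libraries and 7115, 8685, 8021 and 8653 CPM in the disome, a log2 fold change of −0.64 ± 0.10 (adjusted p = 1.61e-05). *ADH1*, the main alcohol dehydrogenase, held 5311, 5174, 5593 and 4943 CPM against 8141, 7594, 8099 and 8186 CPM, a log2 fold change of −0.61 ± 0.07 (adjusted p = 1.22e-06). In neither gene did the groups overlap. F45 lay below the hemizygous strain in *ADH1*, at 4119.9 to 4627 CPM, and overlapped its lower end in *ENO2*, at 4586 to 4975 CPM. *CDC19*, pyruvate kinase, had −0.58 ± 0.08 (adjusted p = 3.67e-06), and in it F45, at 3343 to 3569 CPM, lay within the range of the disome. *TDH1*, *PGI1* and *PFK1* had log2 fold changes of −0.62 ± 0.09, −0.52 ± 0.08 and −0.47 ± 0.07.

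Most genes of the respiratory chain rose. Of 39 tested, 30 rose and 0 fell, with a median log2 fold change of 0.43. *QCR7*, a subunit of complex III, held 1725, 1792, 1701 and 1704 CPM in the hemizygous libraries and 1040.1, 1034, 961 and 1000.8 CPM in the disome, a log2 fold change of 0.78 ± 0.06 (adjusted p = 6.26e-10). *COX7*, of complex IV, held 1243, 1258, 1249 and 1120.0 CPM against 724, 756, 674 and 631 CPM, a log2 fold change of 0.81 ± 0.09 (adjusted p = 3.66e-07). In both genes the groups did not overlap, and F45 lay between the strains, at 1526 to 1641 CPM for *QCR7* and 862 to 1114 CPM for *COX7*. *ATP2*, a large subunit of ATP synthase, had −0.04 ± 0.10 (adjusted p = 0.795) and did not pass. Of 56 mitochondrial ribosomal proteins, a list added after values were seen, 30 rose and 0 fell, with a median of 0.25. *MRPL33* had 0.70 ± 0.10 (adjusted p = 4.65e-06). Without hemizygous library 1, 19 of the 56 rose. Genes of the citric acid and glyoxylate cycles gave 4 of 33 higher and 0 lower, and the citrate synthase *CIT1* had 0.29 ± 0.11 (adjusted p = 0.0443).

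Gene length moved with these groups. The median log2 fold change was 0.118 over ORFs of up to 500 bases, of which 22.4% rose and 2.76% fell, and it declined through each class of length to −0.132 over ORFs of more than 3000 bases, of which 2.08% rose and 25.2% fell. Across the tested ORFs, the Spearman correlation of the log2 fold change with length was −0.277, and with GC content −0.304, as descriptions. In single libraries the log2 gap of short over long ORFs was 0.0286 to 0.325 in the hemizygous strain, −0.258 to 0.0254 in the disome, and −0.216 to −0.145 in F45. The hemizygous libraries were thus the highest, hemizygous library 1 most, and disome library 2 was close to the lowest of them.

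With each library's length trend removed, in an alternative chosen after seeing the data, 9.51% of ORFs rose and 14.4% fell, and 479 of the 711 higher and 694 of the 799 lower calls were shared with the unadjusted comparison. Of the respiratory genes 17 rose and 0 fell, with a median of 0.215, and of the mitochondrial ribosomal proteins 21 rose and 0 fell. *QCR7* had 0.59 (adjusted p = 3.91e-08) and *COX7* 0.55 (adjusted p = 2.52e-06). The phosphate, zinc and glycolysis lists gave 12, 12 and 17 lower. The origin of the trend was not tested.

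**Figure D3:**
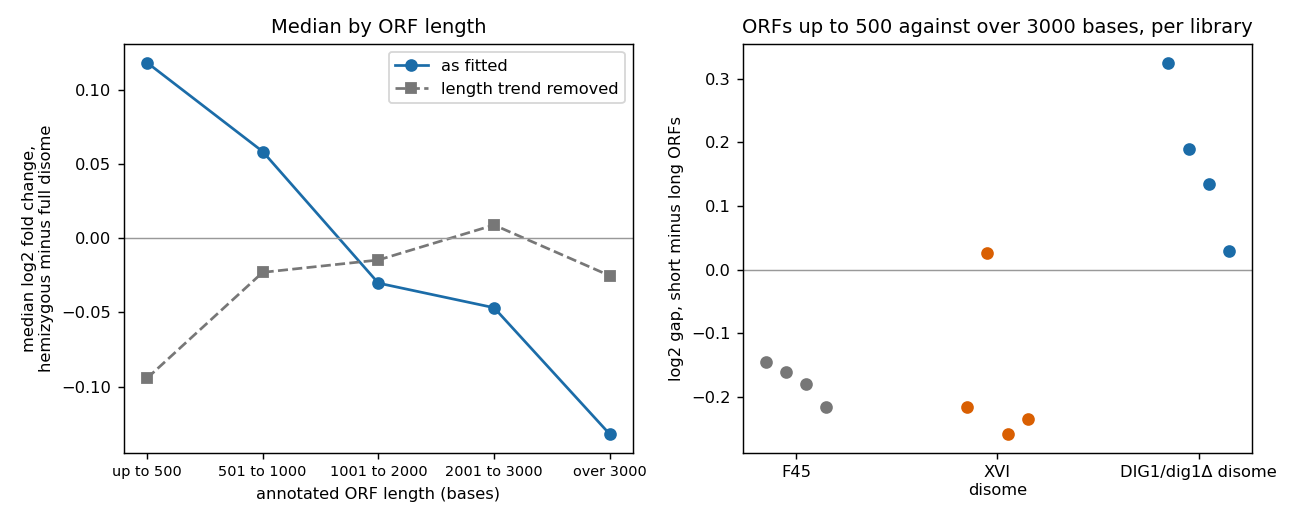
Left, median log2 fold change (hemizygous minus full disome) of tested ORFs in 5 classes of length, as fitted and with the length trend of each library removed. It falls from 0.118 to −0.132 as fitted. Right, log2 gap between the median level of ORFs up to 500 bases and that of ORFs over 3000 bases in each library. The 4 hemizygous libraries lie at 0.0286 and above.

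Many enzymes of purine and amino acid synthesis fell. Of 21 tested purine and 1-carbon genes, a list added after values were seen, 0 rose and 15 fell, with a median log2 fold change of −0.32. *SHM2*, the cytosolic serine hydroxymethyltransferase, held 1439, 1306, 1543 and 1854 CPM in the hemizygous libraries and 2670.5, 2176, 2841 and 2832 CPM in the disome, a log2 fold change of −0.78 ± 0.13 (adjusted p = 4.43e-05). The groups did not overlap, and F45, at 1401 to 1689 CPM, lay within the hemizygous range. *ADE6* and *GUA1*, enzymes of purine synthesis, had −0.70 ± 0.08 (adjusted p = 3.66e-07) and −0.68 ± 0.09 (adjusted p = 4.92e-06). Of 45 amino acid genes under Gcn4, 0 rose and 21 fell, with a median of −0.31. *ILV3*, *TRP5* and *HOM3*, of branched chain, tryptophan and threonine synthesis, had −0.54 ± 0.08 (adjusted p = 1.74e-05), −0.53 ± 0.07 (adjusted p = 6.38e-06) and −0.51 ± 0.09 (adjusted p = 1.15e-04), while *GCN4* itself had −0.00 ± 0.08 (adjusted p = 0.974).

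Ribosome biogenesis factors fell in part. Of 90 tested, 2 rose and 37 fell, with a median of −0.18, and without hemizygous library 3 the number lower was 23. *NOP1*, the fibrillarin that methylates rRNA, had −0.47 ± 0.07 (adjusted p = 1.24e-05), and *RPA135*, the second largest subunit of RNA polymerase I, −0.62 ± 0.08 (adjusted p = 1.08e-06). Of 137 cytosolic ribosomal proteins, 0 rose and 24 fell, with a median of −0.05. This count is to be read against 13.5% of all ORFs. It was 44 with the length trend removed, 14 without hemizygous library 2, and 15 without disome library 4. *RPL4A* and *RPP0* had −0.49 ± 0.07 (adjusted p = 8.21e-06) and −0.47 ± 0.09 (adjusted p = 3.76e-04).

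Stress genes and markers of stationary phase were in part higher. Of 35 stress induced genes 10 rose and 0 fell, and of 30 chaperones 11 rose and 2 fell. With the length trend removed, 6 of the stress genes and 8 of the chaperones rose. *HSP12*, a small membrane protein of the stress response, held 8781, 9426, 8986 and 8299.8 CPM in the hemizygous libraries and 5929, 6347, 5331 and 5249 CPM in the disome, a log2 fold change of 0.63 ± 0.08 (adjusted p = 1.60e-06). Its groups did not overlap, and F45 lay between them at 7169.7 to 8131 CPM. The disaggregase *HSP104* and the Hsp70 *SSA4* had 0.57 ± 0.09 (adjusted p = 1.64e-05) and 0.67 ± 0.15 (adjusted p = 8.37e-04), and the ribosome bound Hsp70 *SSB1* had −0.60 ± 0.07 (adjusted p = 7.12e-07).

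*SPG1* and *SPG4*, needed for survival in stationary phase, had 0.91 ± 0.08 (adjusted p = 2.25e-09) and 0.72 ± 0.09 (adjusted p = 7.77e-07). *SPG1* held 692, 687, 799 and 715 CPM against 409.9, 379, 380.1 and 372 CPM, with F45 at the hemizygous level (672 to 779 CPM). Of 15 tested stationary phase *SPG*, *SNZ* and *SNO* genes 5 rose and 0 fell, and 3 rose with the length trend removed. Of 5 stationary phase markers 4 rose and none stood at 0, while *SNZ1* had −0.25 (adjusted p = 0.238). Their summed level was 7816 to 8583 CPM in the hemizygous libraries and 5696 to 6521 CPM in the disome. *HSP26* was the largest part of it, with means of 4982 and 4078 CPM. Of 5 markers of dividing cells 0 passed the threshold (3 had an unadjusted p under 0.05, and DESeq2 called 2). The stationary phase markers moved in the same libraries as the glycolysis, respiration and ribosome groups, and their part in those was not tested. *EGO4*, *YIL055C*, *NRS1* and *YGR174W-A*, further genes among the 10 largest increases, had log2 fold changes of 0.79, 0.81, 0.81 and 0.84. With the length trend removed these were 0.57, 0.84, 0.59 and 0.54, and that of *SPG1* was 0.68. *NRS1* is known to promote cell cycle entry when nitrogen is short.

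**Figure D4:**
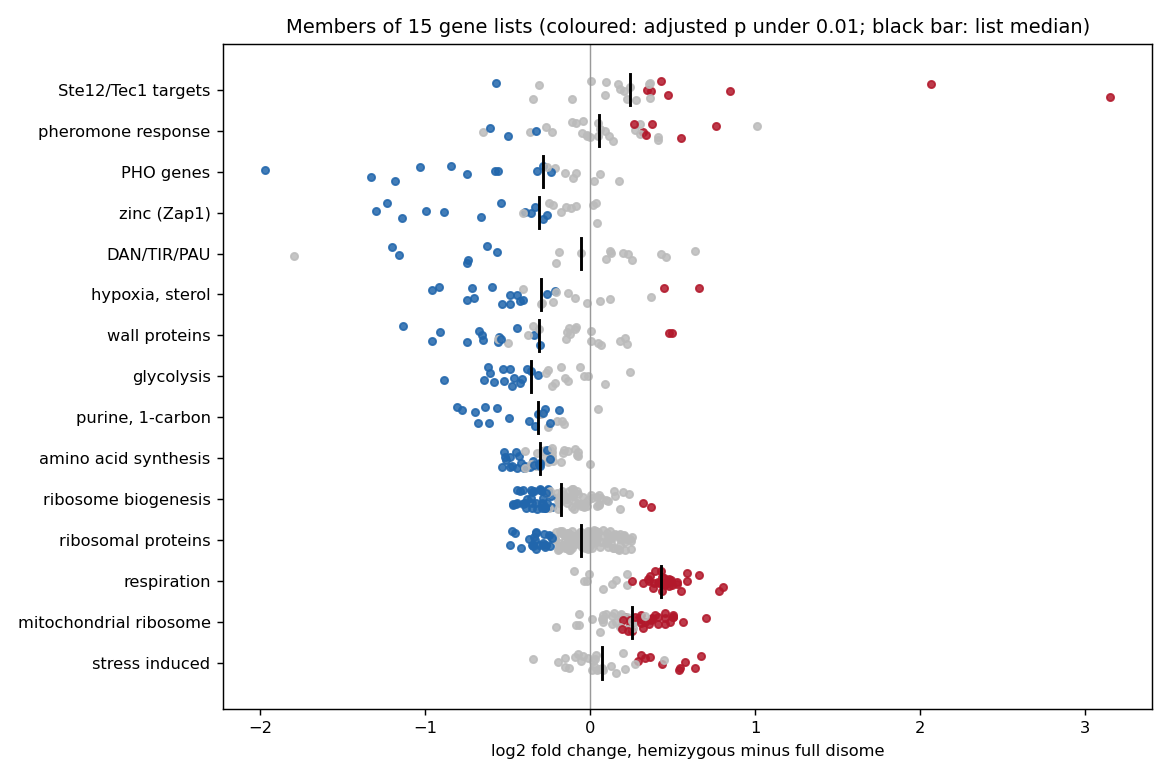
Log2 fold change (hemizygous minus full disome) of every tested member of 15 gene lists. Coloured points have an adjusted p under 0.01, grey points do not, and the black bar is the list median. The medians run from −0.36 for glycolysis to 0.43 for respiration, and single points at 3.15 and −1.97 are *FLO11* and *PHO84*.

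Other groups are given by their counts. Of 26 iron genes 5 rose and 2 fell, of 25 peroxisomal genes 5 and 1, of 30 nitrogen genes 3 and 2, of 27 hexose transport genes 1 and 2, of 27 cell cycle genes 1 and 1, and of 34 proteasome genes 6 and 0. Of 11 histone genes 6 rose and 0 fell. *HTB1* had 0.42 ± 0.06 (adjusted p = 5.72e-06). Among 34 sporulation genes 6 rose and 0 fell. *SPS4* was at 13.2, 10.8, 11.8 and 11.6 CPM against 6.67, 6.37, 7.11 and 8.81 CPM, a log2 fold change of 0.74 ± 0.14 (adjusted p = 2.43e-04), and its hemizygous libraries reached the lower end of F45 (12.04 to 14.9 CPM). Of 10 reference genes often used for normalization, 0 rose and 2 fell, and *ACT1*, actin, had −0.20 ± 0.07 (adjusted p = 0.0337).

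Noncoding transcripts had lower counts than most ORFs. Of 2153 tested, 78 rose (3.62%) and 40 fell (1.86%), and with the length trend removed the balance turned, with 47 higher and 73 lower. Classes were read from the form of the identifiers. Without the length adjustment, 30 of 902 XUTs rose and 18 fell, 21 and 12 of 743 STs, 15 and 5 of 278 SUTs, and 10 and 3 of 220 MUTs. The largest increases were *PWR1*, MUT1143.1 and SUT1554.1. SUT1554.1 (chrVII:111747-112155, plus strand) overlaps the dubious ORF *YGL204C* on the opposite strand and held 8.21, 4.42, 5.40 and 9.42 CPM in the hemizygous libraries and 1.76, 1.52, 2.99 and 0.597 CPM in the disome, a log2 fold change of 1.75 ± 0.26 (adjusted p = 1.02e-05). The groups did not overlap, and F45 was at 26.7 to 35.8 CPM. Without disome library 3 its log2 fold change was 2.24.

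The largest decreases were MUT196.1, ST0140 and SUT1721.1, with log2 fold changes of −1.41 ± 0.41 (adjusted p = 0.00951), −1.31 ± 0.38 (adjusted p = 0.00855) and −1.12 ± 0.27 (adjusted p = 0.00245), each under 3 CPM in every library. The call of MUT196.1 held only without disome library 2 and was lost in the other 7 fits that left out a library (adjusted p up to 0.0458). That of ST0140 held only without disome library 3 and was lost in the other 7 (adjusted p up to 0.0608). That of SUT1721.1 was lost without hemizygous library 1 or disome library 3 (adjusted p up to 0.0182). With no filter on low counts MUT196.1 and ST0140 had an adjusted p of 0.0120 and 0.0127, and DESeq2 gave none of the 3 an adjusted p. The number of noncoding transcripts that fell was 40, and 22 without disome library 1 and 26 without hemizygous library 1.

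Of 20 tested genes that the reference strain lacks, 1 rose, annotated as the maltose regulator *MAL64*, and 4 fell. The number higher was 2 without hemizygous library 1 and 0 without hemizygous library 2 or disome library 4, and the number lower was 2 without the hemizygous or disome library 1.

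The study also raised *DIG1* from a plasmid in euploid F45, which asks whether the effect of *DIG1* depends on the rest of chromosome XVI. Both comparisons are given as the lower minus the higher *DIG1* level, they share no library, and their difference was tested in the same fit. *DIG1* was at 67.9 to 74.1 CPM with the empty plasmid and 291 to 317 CPM with the *DIG1* plasmid, a log2 fold change of −2.09. The step in *DIG1* was thus larger in the plasmid strains, by 0.91 ± 0.09 on the log2 scale (adjusted p = 1.54e-08), and effects are compared without scaling for it. Where an effect has the same direction in both and is larger in the plasmid strains, background and *DIG1* step cannot be told apart. The difference passed the threshold in 14.1% of tested ORFs, upward in 5.81% and downward in 8.32%.

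*FLO11* rose in both backgrounds, and the unscaled difference between them did not pass the threshold. The *DIG1* step was larger in the plasmid strains. The paper, which allowed for that step, reports a higher *FLO11* change in the hemizygous strain than its trend predicted. It held 23352, 22751, 22904 and 21282 CPM with the empty plasmid and 2381, 2283, 2404 and 2624 CPM with the *DIG1* plasmid. The log2 fold change was 3.22 there, and the difference between backgrounds was −0.07 ± 0.31 (adjusted p = 0.905), with a 95% interval of −0.70 to 0.56. The levels differed: with the *DIG1* plasmid, *FLO11* was at the level of the hemizygous disome, above the full disome. For *PWR1* the difference was −0.09 ± 0.48 (adjusted p = 0.924), with an interval of −1.08 to 0.91.

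Other targets moved less in the disome. *NFG1* went from 5.87, 4.85, 5.50 and 6.69 CPM to 209, 231, 199.9 and 210.1 CPM in the plasmid strains. The *DIG1* plasmid brought it to the level of the full disome, and the difference of effects was −3.14 ± 0.32 (adjusted p = 3.78e-08). For *DDR48* it was −1.15 ± 0.12 (adjusted p = 8.94e-08), for *TEC1* −1.01 ± 0.13 (adjusted p = 3.46e-06), for *PRM5* −1.49 ± 0.19 (adjusted p = 1.11e-06), and for *SFG1* −1.05 ± 0.14 (adjusted p = 2.71e-06). Of the 23 targets of Ste12 and Tec1, 20 were higher and 1 lower with the empty plasmid, where 16.4% of all ORFs were higher and 16% lower, and the difference of effects passed the threshold downward in 15 and upward in 1. The **a**-specific genes, of which 0 rose in the disome, were all higher with the empty plasmid, 7 of 7, and 6 differed between backgrounds. *STE2*, the receptor for alpha factor, had −0.45 ± 0.11 (adjusted p = 0.00450), and *MFA2*, which encodes **a**-factor, −1.19 ± 0.17 (adjusted p = 6.75e-06).

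Phosphate genes separated the backgrounds further. In 11 of the 19 genes the effect in the disome was lower than in the plasmid strains, in 0 it was higher, and 7 of the 19 were higher with the empty plasmid. *PHO5* was at 164.2 to 178 CPM with the empty plasmid and 43.3 to 47.7 CPM with the *DIG1* plasmid, so the lower *DIG1* level went with more *PHO5* there and with less in the disome. The empty plasmid strain was itself far below F45 in *PHO5*, and also in *PHO84*, at 947 to 1079 CPM. The difference for *PHO5* was −2.75 ± 0.16 (adjusted p = 1.81e-12). *PHO84* had a log2 fold change of 0.12 in the plasmid strains and a difference of −2.09 ± 0.20 (adjusted p = 1.54e-08), *GIT1* 1.08 and −2.41 ± 0.21 (adjusted p = 4.94e-09), and *VTC1* 1.13 and −1.71 ± 0.09 (adjusted p = 6.09e-13).

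Zinc genes differed too, 7 of 22 downward and 0 upward. In these genes too the empty plasmid strain stood away from F45, with *YOR387C* at 249 to 408 CPM and *ZPS1* at 1678 to 2287 CPM. *YOR387C* had 1.47 in the plasmid strains and a difference of −2.77 ± 0.31 (adjusted p = 2.71e-07), and *ZRT1* 0.11 and −1.10 ± 0.23 (adjusted p = 0.00111). *TIR1* was at 928 to 1188 CPM with the empty plasmid and 368 to 477 CPM with the *DIG1* plasmid, a difference of −2.10 ± 0.18 (adjusted p = 2.23e-09). Some surface proteins went the same way in both backgrounds. *PRY3* had a log2 fold change of −1.44 in the plasmid strains, and the difference of 0.31 ± 0.13 (adjusted p = 0.0997) did not pass. *DAN4*, *HPF1* and *CSS1* had −2.24, −1.99 and −1.96, larger decreases than in the disome by differences of 1.08 ± 0.27 (adjusted p = 0.00443), 1.03 ± 0.21 (adjusted p = 5.88e-04) and 1.05 ± 0.25 (adjusted p = 0.00300).

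Of metabolic groups, the respiratory genes differed in 10 of 39 upward and 1 downward, glycolysis in 1 and 11 of 27, and the mitochondrial ribosome in 21 and 0 of 56. *QCR7* had 0.20 in the plasmid strains and a difference of 0.57 ± 0.09 (adjusted p = 1.65e-05), and *ENO2* −0.05 and −0.59 ± 0.14 (adjusted p = 0.00258). Of the 45 amino acid genes, 41 were lower with the empty plasmid, against 21 in the disome, and the difference passed the threshold upward in 17 and downward in 1. Of the 10 ORFs with the largest increase in the disome, 4 passed in the same direction in the plasmid strains, 2 in the opposite direction, and 4 did not pass. Of the 10 with the largest decrease, which include *DIG1* itself, these numbers were 3, 3 and 4.

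**Figure D5:**
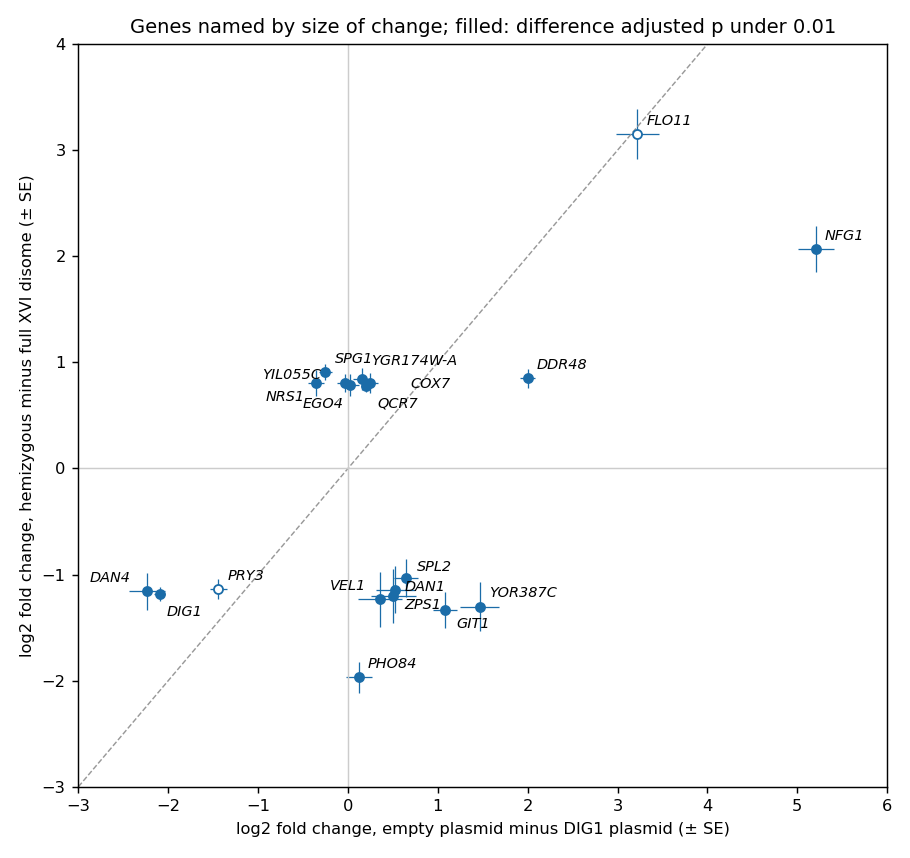
Log2 fold change of the 20 ORFs with the largest changes, in the chromosome XVI disome (hemizygous minus full, vertical) against the plasmid strains (empty minus *DIG1* plasmid, horizontal), with SE. The ORFs were chosen for their change in the disome, which favors a difference from the plasmid strains. Filled points have a difference between backgrounds at an adjusted p under 0.01. The dashed line marks equal effects, not scaled for the larger *DIG1* step in the plasmid strains. *FLO11* and *PRY3* lie beside the line and are open. *PHO84*, *GIT1* and *YOR387C* lie below 0 on the vertical axis and above 0 on the horizontal axis.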

How the data were processed

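Strand specific mRNA libraries from 4-d colonies were sequenced as read pairs by the study. The deposited table holds raw counts: the authors aligned the reads with Bowtie2 2.1.0 and counted fragments with featureCounts 1.4.0 over 12131 ORFs, noncoding transcripts and nonreference genes on R64, with no filter on mapping quality and no copy number correction in the counts. All 24 batch 1 libraries in 6 groups were fitted with edgeR 4.0.16 (R 4.3.3, limma 3.58.1, quasi-likelihood test), using TMM factors and library sizes from the nuclear ORFs of chromosomes I to XIV, filterByExpr, a prior count of 0.125, and Benjamini-Hochberg adjustment over 8097 features. CPM are counts on that scale. Calls have an adjusted p under 0.01.

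On simulated counts 100 of 100 genes changed by a log2 of 1 and 87 of 100 changed by 0.5 were recovered. Among the 7979 features tested there, 1 that was left unchanged was called. The changed genes were ORFs with a mean of at least 10 CPM. The simulated libraries held no length trend, so they do not measure false calls from that trend or the recovery of low-count features. Libraries were pools of colonies from a strain, and whether the pools came from separate cultures is not given in the sources used here, so p-values measure the spread between libraries. Run numbers come from the column names and were not used to pair libraries.

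Members and gene lists were chosen with earlier results of these data known. Named genes were *DIG1*, *DIG2*, *STE12*, the 4 ORFs on each side of *DIG1*, the 10 largest increases and decreases with a mean of at least 10 CPM and no overlap, the 3 noncoding and nonreference features with the largest changes each way, and called members of lists, with others whose role the text needed. *SFG1*, *AFB1*, *ICR1*, *YMR173W-A*, *YML122C*, 13F-14 and ST2421 lie outside it and were chosen after their values were seen. Alternatives were DESeq2 1.42.0, a likelihood ratio test, other scalings, filters, fits and prior counts, a 1.5-fold test, a block on the run number, each library left out, and, chosen after seeing the data, length and GC trends removed. Sequences come from RefSeq (R64), and 5900 of 6575 nuclear ORFs matched a RefSeq locus.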

Additional observations from a re-analysis of the deposited data

Results flagged for a closer look

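In 123 genes, each strain's 4 libraries were checked for one that lies far from the other 3, and 18 of 246 groups held such a library. The cutoff is one set to mark about 1 in 20 groups by chance, a rate that was not measured here. In the hemizygous strain the lowest library held 1120 CPM of *COX7* (next 1243), 24.3 CPM of *FIG2* (next 30.8), 2613 CPM of *HSP104* (next 2951), 1440.0 CPM of *RPL4A* (next 1515) and 1605 CPM of *CIT1* (next 1879.7). Its highest library held 29.7 CPM of *PRM3* (next 24.4) and 17.2 CPM of *ICR1* (next 15.9). In the full disome the highest library held 541 CPM of *FLO11* (next 236), 2.54 CPM of MUT196.1 (next 1.03), 46.6 CPM of *BUD8* (next 45.3), 371 CPM of *IZH2* (next 327) and 523 CPM of *CTS1* (next 473). The lowest disome library held 11.4 CPM of *HMS2* (next 12.3), 914 CPM of *PFK1* (next 1095), 7594 CPM of *ADH1* (next 8099), 1236 CPM of *SSB1* (next 1366), 483 CPM of *RPA135* (next 581) and 1233 CPM of *GCN4* (next 1449).

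The effect of the lower *DIG1* level differed between the chromosome XVI disome and the plasmid strains, past the threshold of the same edgeR fit, in 62 of the 123 genes. Effects were not scaled for the larger *DIG1* step in the plasmid strains. The 20 given here are those among *DIG1*, the 10 largest increases and decreases and the largest noncoding changes. They were chosen for their change in the disome, which favors a difference. The log2 difference (disome minus plasmid strains) was 0.91 for *DIG1* itself. It was negative for *NFG1* (−3.14), *DDR48* (−1.15), *PHO84* (−2.09), *GIT1* (−2.41), *YOR387C* (−2.77), *VEL1* (−1.59), *DAN1* (−1.71), *ZPS1* (−1.67), *SPL2* (−1.68), MUT1143.1 (−3.24) and SUT1554.1 (−1.72). It was positive for *SPG1* (1.16), *YGR174W-A* (0.69), *YIL055C* (0.84), *COX7* (0.56), *NRS1* (1.16), *EGO4* (0.77), *QCR7* (0.57) and *DAN4* (1.08). The positive value for *DAN4* came from a decrease in both backgrounds that was the larger one in the plasmid strains.

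The count table also holds features for spike-in RNA, which no comparison used. They had 4 to 35 counts in the 8 libraries and 1 to 28 in F45.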

How the results depend on the processing

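No named gene that passed the threshold, in the main fit or in an alternative, changed direction between them. Some genes that did not pass changed sign with a library left out. These include *ROX1* (−0.316 to 0.139), *ATP2* (−0.095 to 0.014), *GCN4* (−0.061 to 0.024) and *MFA2* (−0.065 to 0.182). In the alternatives other than leaving out a library, 1559 checks kept their side of the threshold, 7 lost and 4 gained it. DESeq2 gave no adjusted p for 13F-14, MUT196.1, ST0140 and SUT1721.1, which are not counted there. Of 976 checks with a library left out 944 kept it, 31 lost and 1 gained it. With DESeq2, 3 ORFs were over 2-fold higher. Against a 1.5-fold change, 3 ORFs were higher and 4 lower. The nonreference genes higher were 2 with DESeq2 and in fits to the 8 libraries or to F45 and the chromosome XVI disomes. The chromosome XVI median was 0.0219 with DESeq2, 0.00505 with no filter, 0.0306 and 0.0277 in those fits, and −0.0114 with the length trend removed. Removing that trend gave 17 higher respiratory genes, 44 lower ribosomal proteins, and 47 higher and 73 lower noncoding transcripts. With the GC trend removed, 11 of 23 Ste12 and Tec1 targets rose.

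With any library left out, 505 to 782 ORFs were higher and 605 to 846 lower, both fewest without disome library 3. The ranges were 19 to 36 for higher mitochondrial ribosomal proteins, 23 to 38 for lower ribosome biogenesis genes, 14 to 25 for lower ribosomal proteins, 22 to 36 for lower noncoding transcripts, 0 to 2 and 2 to 4 for higher and lower nonreference genes, and 0.00970 to 0.0196 for the chromosome XVI median. The cause was not tested.

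Run numbers were not taken to pair the libraries, since the correlations of same-numbered libraries' deviations from the strain means were not all above 0.1 (−0.214, 0.138, 0.208 and 0.138), and only libraries 2 and 3 correlated best with their own number. With run number as a block, 2 nonreference genes were higher, and *AGA1*, MUT196.1 and ST0140 had an adjusted p of 0.0102, 0.0135 and 0.0106.

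Low counts limit precision where *PWR1* and MUT1143.1 rest on 22 and 20 counts over the 4 disome libraries.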
